A study of Mus musculus with 20 samples.

Results

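The liver is the main source of the proteins that coat plasma lipoproteins. The 10 genes described here are the apolipoprotein genes Apoa1, Apoa2, Apoa4, Apoa5, Apob, Apoc1, Apoc2, Apoc3 and Apoe, together with Pltp, which encodes a plasma phospholipid transfer protein. They were taken by gene symbol from both RNA-seq tables of the series and joined by gene identifier. All 10 were listed in both tables, among 56884 genes in the male table and 18149 in the female table.

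The study compared livers of wild-type mice (WT) with livers in which a conditional gene trap of Midn had been switched to its trapped state (Midn-T). Midn encodes midnolin, a nuclear protein that carries short-lived proteins to the proteasome. Cre recombinase driven by the Albumin promoter, which is active in hepatocytes, inverts the trap cassette, which stops Midn expression and turns on green fluorescent protein. The genotype field named the untrapped allele (Midn XTR) for the WT samples and the trapped allele (Midn TR) for the Midn-T samples, and whether the WT mice carried Cre was not given. Livers came from males and females aged 11 to 14 weeks, with 3 RNA-seq samples in each combination of sex and genotype, 12 in all. Of the 8 ATAC-seq samples, 5 had a title that disagreed with the library name in sex or genotype, and the ATAC-seq lists held no measurement used here.

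The value available for each gene was the authors' mean of the normalized counts of the 6 samples of a sex, 3 WT and 3 Midn-T together. A normalized count is the number of reads assigned to a gene, divided by a size factor that corrects for the depth of that library. The tables held no value for a single sample, and the remaining columns were the authors' own comparison of the genotypes, which was not used here. Therefore no comparison of Midn-T with WT is made below, no value has a replicate error and no test could be run. The knockdown could not be checked from these means either: Midn had a mean normalized count of 1672 in males and 1357 in females over both genotypes. Each sex had been normalized on its own, and its mean pools both genotypes. A ratio of females to males can therefore also hold a genotype effect that differs between the sexes, and the paper reports sex-dependent effects of Midn loss. Every such ratio is a description and carries these limits. Genes at 0 were listed in males, whereas the lowest mean listed in females was 6.61. A gene not listed in females is therefore not read as a difference between the sexes. The levels also come from whole liver, in which fewer cells of a type and less RNA per cell cannot be told apart.

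Apolipoproteins hold lipoprotein particles together, keep lipids in solution and direct the particles to enzymes and receptors. ApoB is the structural protein of very-low-density lipoprotein (VLDL), with 1 molecule on each particle, whereas ApoA-I and ApoA-II are the main proteins of high-density lipoprotein (HDL). ApoE is a ligand for receptors that clear remnants. The small ApoC proteins, ApoA-IV and ApoA-V move between particles and adjust lipolysis, ApoC-II as the activator of lipoprotein lipase and ApoC-III as its inhibitor. PLTP moves phospholipids between particles and remodels HDL.

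Of the 10 genes, 7 lie in a pair of clusters in the mouse genome (GRCm39). Apoa1, Apoc3, Apoa4 and Apoa5 span 43.3 kb of chromosome 9 (chr9:46139878-46183217), with Apoc3 on the minus strand and the other three on the plus strand. Apoc2, Apoc4, Apoc1 and Apoe span 29.4 kb of the minus strand of chromosome 7 (chr7:19405504-19434947). Apoa2 lies at chr1:171049125-171053948 and Apob at chr12:8027648-8066835, both on the plus strand, and Pltp at chr2:164677702-164701743 on the minus strand. Sequences of the 2 smallest members of the chromosome 7 cluster are shown because their levels stood far apart and because the annotation treats their reading frames differently. Capitals mark bases that also belong to an exon of another gene on the same strand. The sequences are the coding parts of GENCODE M39 transcripts on GRCm39, written 5′ to 3′ along the gene without the stop codon. The Apoc2 frame has 291 bases between chr7:19405689 and chr7:19407526, and all 291 were shared with the neighbouring gene model Apoc2l. The Apoc1 frame has 264 bases between chr7:19423504 and chr7:19426393, of which 0 were shared.
Apoc2: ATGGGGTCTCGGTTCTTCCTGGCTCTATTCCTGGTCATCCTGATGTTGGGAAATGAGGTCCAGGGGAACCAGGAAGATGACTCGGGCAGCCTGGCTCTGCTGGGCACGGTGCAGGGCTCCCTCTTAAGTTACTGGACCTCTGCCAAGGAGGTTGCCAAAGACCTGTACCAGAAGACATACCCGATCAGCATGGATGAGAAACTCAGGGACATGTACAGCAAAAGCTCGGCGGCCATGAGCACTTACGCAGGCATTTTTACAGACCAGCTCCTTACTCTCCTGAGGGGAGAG
Apoc1: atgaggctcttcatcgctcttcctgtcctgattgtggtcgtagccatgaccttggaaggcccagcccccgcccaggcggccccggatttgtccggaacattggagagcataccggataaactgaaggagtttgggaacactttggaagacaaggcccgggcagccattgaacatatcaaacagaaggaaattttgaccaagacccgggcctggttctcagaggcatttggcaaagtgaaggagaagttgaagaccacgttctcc

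As a group, the 10 genes took up 3.77% of the summed mean normalized counts of all genes in males and 3.45% in females. Apob and Apoe together made up 72.0% of that amount in males and 71.7% in females. The highest member stood 8453-fold above the lowest in males and 4740-fold in females on the scale of mean normalized counts. The lowest was Apoc2, whose count is uncertain because of an overlapping gene model described below. Genes of such different length can be ordered only per length, so levels below are also given per kilobase of the union of annotated exons. That union includes rare isoforms and differs from the release the authors counted with. For this reason an order between members is stated only after it was compared with the orders per kilobase of the canonical transcript and of the longest coding sequence.

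Apob (ENSMUSG00000020609), whose protein is the scaffold of VLDL, had a mean normalized count of 541579 in males and 484836 in females. It ranked second of all genes in both tables, behind Alb, which encodes serum albumin. A count grows with the length of a gene, and Apob has 13934 exonic bases. Per kilobase of exons its level was 38867 in males and 34795 in females, rank 22 and rank 26 of all genes. The choice of length moved its level by a factor of no more than 1.03.

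Among the HDL genes, Apoa1 (ENSMUSG00000032083) had a mean normalized count of 152578 in males and 112024 in females, rank 20 and rank 23. Per kilobase of exons this was 89332 in males and 65588 in females. Apoa2 (ENSMUSG00000005681) had a mean normalized count of 76587 in males and 86660 in females. Its level was 17606 per kilobase of exons in males and 147851 per kilobase of the canonical transcript, because annotated isoforms extend its exon union to 4350 bases against 518 in the canonical transcript. Per kilobase of exons Apoa1 stood 5.07-fold above Apoa2 in males and 3.29-fold in females. With the coding length the order was the opposite, with Apoa1 at 0.830 times the level of Apoa2 in males and 0.539 times in females, so these files do not fix the order of the pair.

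Apoe (ENSMUSG00000002985) had a mean normalized count of 280437 in males and 276835 in females, rank 5 and rank 8. Per kilobase its level was 69278 in males and 68388 in females. Apoc1 (ENSMUSG00000040564), its neighbour, had a mean normalized count of 54218 in males and 55641 in females, or 25009 and 25665 per kilobase of exons. Apoe stood above Apoc1 with each length used, by 2.77-fold per kilobase of exons and 1.31-fold per kilobase of coding sequence in males. In males the 5 highest members were the same with each of the 3 lengths, namely Apoa1, Apoa2, Apob, Apoc1 and Apoe. In females this also held per kilobase of exons and of the canonical transcript, but with the coding length Apoc3 stood above Apob, at 53754 against 35874.

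Apoa5 and Apoc3 came next per kilobase of exons. Apoa5 (ENSMUSG00000032079), whose protein favours triglyceride hydrolysis, had a mean normalized count of 17952 in males and 18201 in females. Apoc3 (ENSMUSG00000032081) had 16406 in males and 23222 in females. Per kilobase of exons Apoa5 was at 6502 and Apoc3 at 5193 in males, whereas in females Apoc3 was the higher, at 7351 against 6592. With the other lengths Apoc3 was the higher in both sexes, so the order of these neighbours in the ranking depended on the length in males.

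By listed values the lowest 3 places were the same in both sexes and with each length: Apoc2 was the lowest, Pltp next and Apoa4 above it. Each length divides the same count, however, and the count of Apoc2 is uncertain because of an overlapping gene model described below. Its place therefore gains no certainty from the choice of length. Apoa4 (ENSMUSG00000032080), which in mice is made in intestine as well as in liver, had a mean normalized count of 1347 in males and 2492 in females, or 742 and 1373 per kilobase of exons. Of the 4 enterocyte markers, Fabp2, an intestinal fatty acid-binding protein gene, was at 879 per kilobase in males and 981 in females, while Vil1 was at 2.18 and 2.32. Alpi was listed at 0 and Lct had 0.455 per kilobase in males, and neither was listed in females. The part of such cells in the level of Apoa4 was not tested. Pltp (ENSMUSG00000017754), which many tissues express, had a mean normalized count of 1041 in males and 1742 in females, or 176 and 295 per kilobase. Within the chromosome 9 cluster Apoa1 exceeded Apoa4 by 120-fold per kilobase of exons in males and 47.8-fold in females.

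**Figure D1:**
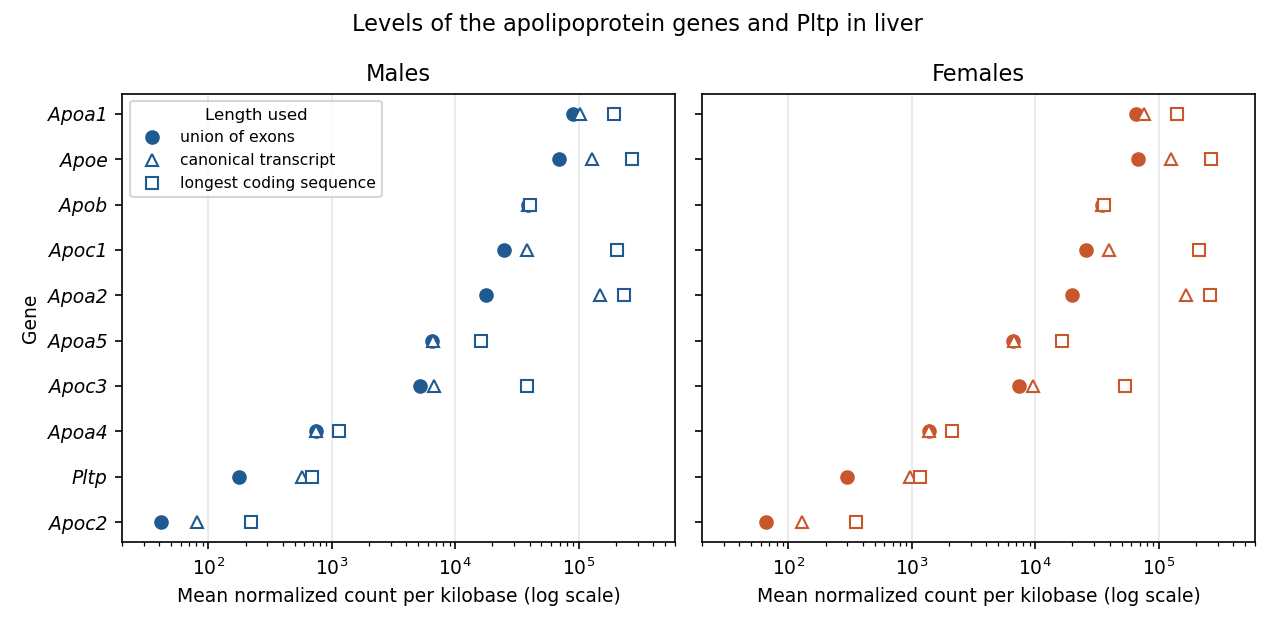
Mean normalized count per kilobase (log axis) of each member in males (left) and females (right), each point being the authors' mean over 6 samples. Filled circles use the union of exons, triangles the canonical transcript and squares the longest coding sequence. Apoa4, Pltp and Apoc2 stay at the bottom with each, while places among the upper 7 depend on the length. The count of Apoc2, which every length divides, is uncertain because of an overlapping gene model.

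Apoc2 (ENSMUSG00000002992) had by far the lowest value of the 10. Its mean normalized count was 64.1 in males and 102 in females, rank 12031 and rank 11198 of all genes, or 41.3 and 65.9 per kilobase of exons. Its cluster neighbours Apoc4, Apoc1 and Apoe were at 2082, 25009 and 69278 per kilobase in males. By these listed values Apoe exceeded Apoc2 by 1678-fold in males and 1038-fold in females per kilobase of exons. Per kilobase of exonic bases not shared with another gene on the same strand, it was 980-fold and 606-fold. All of these ratios rest on the count of Apoc2, which is uncertain for the reason given next, so the size of the gap is uncertain too.

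The annotation places a second gene model over Apoc2. Apoc2l (ENSMUSG00000109350) starts within Apoc4, runs on the same strand through Apoc2 and ends within its last exon. The authors' male table lists it, and in the annotation used here it has 765 exonic bases, of which 0 are its own: 119 lie in exons of Apoc4 and 646 in exons of Apoc2. Those 646 bases are 41.6% of the 1552 exonic bases of Apoc2, and they include the whole reading frame printed above. Apoc2l itself was listed at 0 in males and was not listed in females. A counter that leaves out reads fitting more than 1 gene would drop reads from these bases, and the setting for such reads was not given in the sources used here. The value of Apoc2 is therefore uncertain and may stand for only part of its reads. Apoc2 has 906 exonic bases that no other gene on that strand shares. Dividing by these gave 70.7 per kilobase in males and 113 in females, still the lowest value among the members. Nearly all of these bases lie outside the exons that hold the reading frame. If reads from shared bases were dropped, this division therefore cannot show where Apoc2 stands among the members.

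Among 21770 protein-coding genes of the annotation, 345 (1.58%) shared at least 99% of their coding bases with another gene on the same strand. Of the 303 of these in the male table, 188 (62.0%) were listed at 0 and 18.5% reached a mean of at least 10. Of the 21364 other protein-coding genes, 22.7% were at 0 and 61.1% reached a mean of at least 10. Apoc2 was thus among the minority of such genes with a mean of at least 10. No other member shared exonic bases with a gene on its own strand. Apoa2, Apoa4, Apoa5, Apob, Apoe and Pltp overlap genes on the opposite strand, such as Ctsa, which covers 1252 of the 5897 exonic bases of Pltp, but reads were counted by strand.

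**Figure D2:**
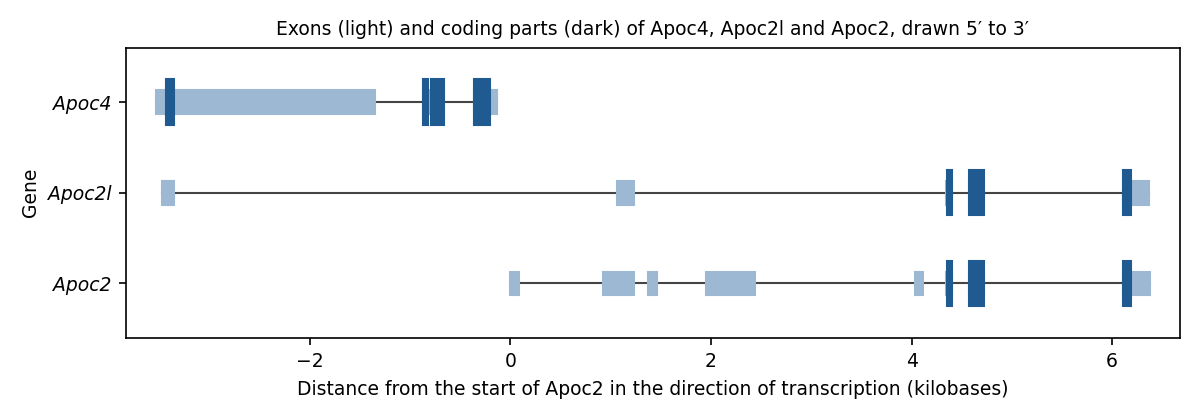
Exons (light) and coding parts (dark) of Apoc4, Apoc2l and Apoc2, drawn to scale as the distance in kilobases from the start of Apoc2 in the direction of transcription. The 3 coding parts of Apoc2 lie under exons of Apoc2l.

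Between the sexes, 4 of the 10 members differed by more than 0.5 on the log2 scale, and all 4 had the higher mean in females. Among all 16283 genes with a mean of at least 10 in both sexes, 16.8% differed by more than 0.5 in either direction and 12.0% did so with the higher mean in females. Apoa4 was 1.85-fold higher in females (log2 ratio 0.89), Pltp 1.67-fold (0.74), Apoc2 1.60-fold (0.67) and Apoc3 1.42-fold (0.50). Of the 9 members with a mean of at least 1000 in both sexes, 3 differed by that much, against 7.99% of all 4153 such genes, or 4.53% counting only those higher in females. The scaling between the tables bears on these shares: of the genes differing by more than 0.5, those higher in females made up 71.3% of the larger set as deposited, 62.6% when scaled by the median gene, 67.2% by the sum and 81.5% by housekeeping genes. In the set with a mean of at least 1000 they made up 56.6% as deposited, 45.8% scaled by the median gene, 50.7% by the sum and 72.7% by housekeeping genes. Apoc3 lies at the edge of this limit, with a log2 ratio of 0.45 after scaling by the median gene, 0.48 by the sum and 0.59 by housekeeping genes. Whether it counts among the members over the limit therefore depends on the scaling. These are ratios of means that pool WT and Midn-T samples, without a replicate error. A sex difference cannot be told apart in them from a genotype effect that differs between the sexes.

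Set against the 4153 genes with a mean of at least 1000 in both sexes, 1.95% of genes had a larger absolute ratio than Apoa4, 3.01% a larger one than Pltp and 7.95% a larger one than Apoc3. For Apoc2, 9.12% of the 16283 genes with a mean of at least 10 had a larger one. The 3 members with the lowest listed levels were thus also those with the largest ratios, though level and ratio of Apoc2 are uncertain because of Apoc2l. Apoc2 rested on the fewest reads.

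Apoa1 was the member with the largest ratio towards males, at 1.36-fold (log2 ratio of females to males -0.45), and 9.78% of the 4153 genes had a larger absolute ratio. Apob was 1.12-fold higher in males (log2 ratio -0.16) and Apoa2 1.13-fold higher in females (0.18). The 2 main HDL genes thus had ratios of opposite sign. Apoa5 (0.02), Apoc1 (0.04) and Apoe (-0.02) had ratios near 0, and the sign of each of these 3 changed with the scaling between the tables. The other 7 members kept their sign under every scaling tried.

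Within the chromosome 9 cluster the ratio of females to males was -0.45 on the log2 scale for Apoa1, 0.50 for Apoc3, 0.89 for Apoa4 and 0.02 for Apoa5. Within the chromosome 7 cluster it was 0.67 for Apoc2, 0.02 for Apoc4, 0.04 for Apoc1 and -0.02 for Apoe. Neighbours in the first cluster thus had ratios on both sides of 0, while in the second only Apoc2 stood away from it. The value of Apoc2 is uncertain because of its overlap with Apoc2l, and so is its ratio. Over the 10 members the median log2 ratio was 0.11 and 7 were above 0. Over the 16283 genes the median was 0.05 and 57.5% were above 0.

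**Figure D3:**
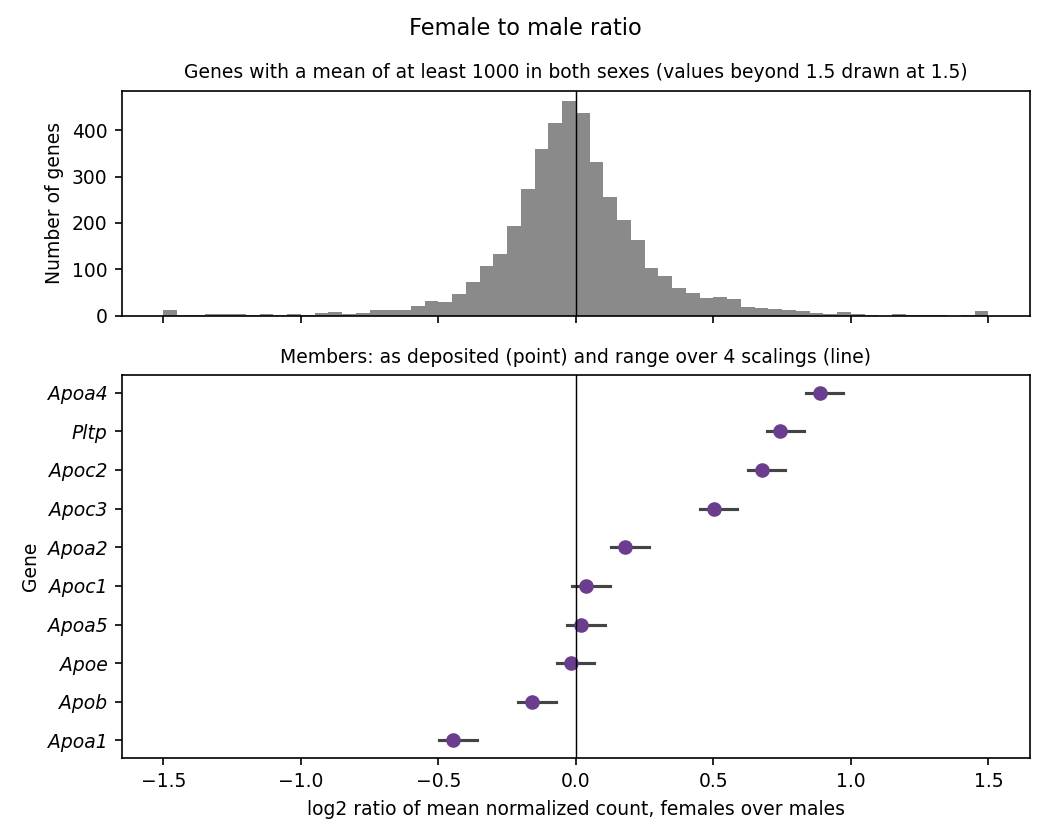
Top, log2 ratio of females to males of the mean normalized count for the 4153 genes with a mean of at least 1000 in both sexes (number of genes per bin, values beyond 1.5 drawn at 1.5). Bottom, the same ratio for each member as deposited (point) with its range over 4 scalings of the tables (line, not a replicate error); Apoa4, Pltp, Apoc2 and Apoc3 lie to the right and Apoa1 to the left, and the lines of Apoc1, Apoa5 and Apoe cross 0.

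Markers of liver cell types were read in the same tables as a check of the tissue. The 6 hepatocyte markers lay between 29873 and 338346 per kilobase of exons in males, led by Alb and transferrin (listed as Trf). Their summed level was 549303 in males and 673503 in females, and 210957 and 216243 without Alb. Of these markers, 4 of 6 had the higher mean in females, and Ttr (-0.10) and Serpina1c (-0.38) the lower. The 6 Kupffer cell markers summed to 3225 and 3320 and the 5 sinusoidal endothelial markers to 1245 and 1421. Single markers went both ways: 4 of 6 Kupffer cell markers had the higher mean in females, with log2 ratios from -0.60 to 0.37. Among the endothelial markers it was 4 of 5, from -0.43 to 0.28. The 4 cholangiocyte markers summed to 87.5 and 97.0. Of the cholangiocyte markers, 3 had the higher mean in females, by 0.52 to 0.95 on the log2 scale, and Sox9 had a ratio of -0.23. All 5 stellate cell markers had the higher mean in females, by 0.33 to 0.50 on the log2 scale, with a summed level of 671 in males and 893 in females. Of the 3 adipocyte markers, Adipoq and Plin1 were at 1.36 and 0.573 per kilobase in males and at 8.06 and 2.89 in females. These values rest on few reads, with mean normalized counts of 3.10 and 3.64 in males and 18.3 and 18.4 in females. Lep had 0.0390 per kilobase in males and was not listed in females. The part of any of these cells in the ratios of Apoa4, Pltp, Apoc2 or Apoc3 was not tested.

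Of 13 other apolipoprotein genes, 11 had a mean of at least 10 in males and 10 in females. Apoh, which encodes a phospholipid-binding plasma glycoprotein, was the highest at 18218 per kilobase in males, within the range of the members. Apof followed at 4772, and Apod was listed at 0. Neither Apod nor Apol8 was listed in females. The median log2 ratio of females to males of the 11 compared was 0.03. Of the family of lipid-binding proteins to which PLTP belongs, Lbp, which encodes the lipopolysaccharide-binding protein, was at 450 per kilobase in males, above Pltp at 176 with the exon union. Bpi was listed at 0 in males and was not listed in females.

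All 10 genes for the assembly and secretion of ApoB lipoproteins had a mean of at least 10 in both sexes. P4hb, a subunit of the microsomal triglyceride transfer complex, was the highest at 8240 per kilobase in males, followed by Cideb, a protein of VLDL lipidation, at 2316. Tm6sf2, also needed for VLDL lipidation, was the lowest at 204 and was 1.90-fold higher in females (log2 ratio 0.93). Sort1, a sorting receptor chosen here after its values were seen, was lower in females at -0.74. The median over this list was 0.01. The mRNA of Apob is edited in mouse liver by APOBEC1 with its cofactors, and A1cf was at 2165, Rbm47 at 738 and Apobec1 at 104 per kilobase in males. All 3 had the lower mean in females, by 0.06 to 0.26 on the log2 scale as deposited, but the ratio of A1cf turned from -0.06 to 0.02 when scaled by housekeeping genes.

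Of the 9 lipoprotein receptors and their regulators, Lrp1, a remnant receptor, was the highest at 3070 per kilobase in males, followed by Lsr at 1327. Lrp8 was the lowest at 0.478 and was not listed in females. Vldlr, a receptor for ApoE-containing particles, was chosen here after its values were seen. It was at 6.03 per kilobase in males and at 44.6 in females, a ratio of 7.40 and the largest of the 8 compared. The median log2 ratio of those 8 was 0.08. Among 11 lipases, lipid exporters and related genes, Lcat, whose enzyme esterifies cholesterol on HDL, was the highest at 4168 per kilobase in males. Lmf1 was the lowest at 39.4. Lipc, Lpl and Lipg, the plasma lipases, were named after their values were seen. The log2 ratio of females to males was 0.67 for Lipc, -0.74 for Lpl and -0.74 for Lipg. The median over the 11 genes was -0.04.

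The 11 transcription factors known to act on apolipoprotein genes had a narrower range of ratios, from -0.22 to 0.34 with a median of -0.01. Hnf4a, the hepatocyte nuclear receptor, was the highest at 4606 per kilobase in males and Rxra, the common partner of lipid-sensing nuclear receptors, second at 2211. Nr2f1 was the lowest at 3.48. The ratios of Apoa4 (0.89) and Apoa1 (-0.45) lay outside the range of the listed factors, as did those of Pltp, Apoc2 and Apoc3. Only the mRNA of the factors was read, and their part in the ratios of the members was not tested.

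**Figure D4:**
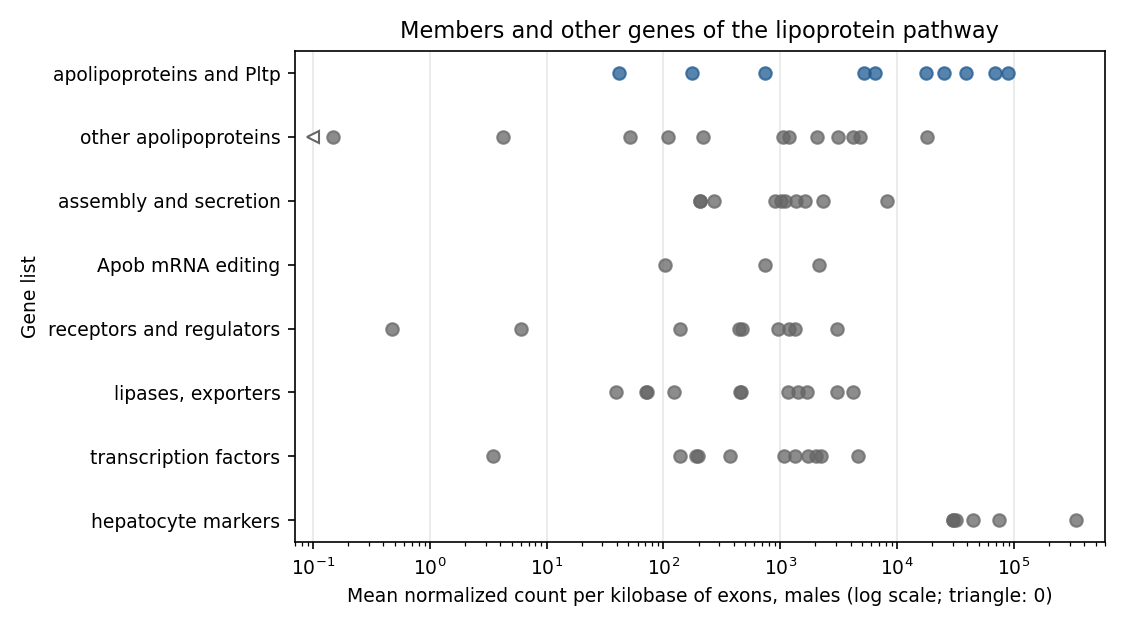
Mean normalized count per kilobase of exons in males (log axis), 1 point per gene, for the members (blue) and the other gene lists (grey), with a gene at 0 drawn as an open triangle. The members reach from 41.3 (Apoc2, a value made uncertain by its overlap with Apoc2l) to 89332. Of them, 5 lie at 17606 or above, a level that Apoh alone reaches among the other pathway genes.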

How the data were processed

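Total RNA of whole liver was depleted of ribosomal RNA and sequenced as paired stranded reads. Per the study's methods, reads were aligned to GRCm39 with STAR (version 2.7 per the labels), uniquely mapped reads were assigned to Ensembl genes by HTSeq in reverse-stranded mode, and DESeq2 was run by the authors within each sex. The values used are the deposited signal column of each table, the authors' mean over 6 samples of counts divided by size factors. The other deposited columns hold the authors' log2 fold change, its error, statistic and p-values for WT against Midn-T, and were not used. The ATAC-seq lists hold peaks selected by the authors' own comparison and were left out. Protein sequences were not analysed here.

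Levels were divided by exon lengths from GENCODE M39 on GRCm39 (56323 of 56884 male and 18045 of 18149 female identifiers matched). Hprt and Tf of the lists were found as Hprt1 and Trf through RefSeq synonyms. Ratios of females to males used the deposited means, with scaling by the median gene, by the sum or by 12 housekeeping genes as alternatives. Means of at least 10 or at least 1000 defined the gene sets for comparison. All members are named in full, and of every other list the 2 highest and the lowest gene in males, genes not listed and same-strand overlaps. A gene that this rule would name is not reported here. Members, lists and the set of ribosomal and mitochondrial loci were chosen with earlier results of these data known.

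Depth per sample was not given. In the male table, low means were whole multiples of what 1 read is worth in each library: all 5018 values up to 0.5 were such sums within 2e-06. This gave 6 size factors, of which the lowest was 0.598, the next 0.938 and the highest 1.27. Which library had which factor is unknown. The search was tested on simulated data. The female table has no value below 6.61, so the same could not be done. Python 3.11.15, pandas 2.3.3, numpy 2.4.6 and matplotlib 3.10.9 were used.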

Additional observations from a re-analysis of the deposited data

How the results depend on the processing

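Leaving out ribosomal RNA, rRNA-like and mitochondrial loci raised the members' share of the summed means to 3.98% in males and 3.66% in females. The sum over genes listed in both tables gave 3.78% in males and is the same set as the whole table in females. The median log2 ratio of females to males over the members was 0.0572 when scaled by the median gene, 0.0838 by the sum of shared genes and 0.194 by housekeeping genes. The ratio changed sign to -0.0308 (median gene) and -0.00423 (sum) for Apoa5, to -0.0133 (median gene) for Apoc1 and to 0.0670 (housekeeping genes) for Apoe. The 3 scalings subtract a shift of 0.0506, 0.0240 and -0.0857. The coding length raised the members' levels per kilobase by 1.03-fold (Apob) to 13.2-fold (Apoa2), and 3 members in males and 5 in females kept their place. The canonical transcript, a length chosen after seeing the data, raised them by up to 8.40-fold, and 4 and 6 kept their place. Unshared bases moved Apoc2 alone, by 1.71-fold. Replicates could not be left out, because the tables pool the samples of a sex. No paired analysis was possible because no value per sample was given and no result comes from a test.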
